A study of Caenorhabditis elegans with 4 samples.

Results

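Chromosome V of Caenorhabditis elegans held 435 of the 2621 regions called by chromatin immunoprecipitation and sequencing (ChIP-seq) of the protein F23B12.7, or 16.6% of the combined list. These 435 regions were chosen by position alone: they are all entries of the combined list on chromosome V, in coordinates of WormBase build WS180. The list of ChIP replicate 1 held 183 regions on this chromosome out of 1038, and the list of ChIP replicate 2 held 49 out of 310. ChIP and input were each sampled 2 times, always from young adult hermaphrodites of strain OP429 grown at 20 °C. Every sample, input included, carries unc-119(ed3) III and the integrated transgene wgIs429, which expresses F23B12.7 with a GFP and FLAG tag and restores unc-119. The ChIP samples were precipitated with anti-GFP antibodies, and input is total genomic DNA from a set-aside share of the same lysates. The strain was made by bombardment, whole worms of mixed tissues were used, and no ChIP of worms without the tag is among the samples. The labels do not say whether the replicates came from separate cultures, so the spread between them may be technical.

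As background, worm chromosomes have no single centromere, and their "arms" are long outer stretches that recombine often and hold many repeats and young gene families. The centres of the autosomes recombine rarely and are rich in conserved and widely expressed genes. Chromosome V is the longest of the 6 chromosomes and is known for its large families of chemoreceptor genes. F23B12.7 belongs to the CCAAT-binding factor family with human CEBPZ, and the yeast member of that family, Mak21, acts in the assembly of the large ribosomal subunit. The tagged gene is itself a gene of chromosome V, by its RefSeq entry, whereas unc-119 lies on chromosome III. Gene positions in build WS180 were not analysed here, so regions are named by position, and whether one lies at the F23B12.7 gene is not known.

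The first question was how the regions are spread along the chromosome. Chromosome V had 20.9 regions per Mb over 20.8 Mb, where its length was taken as the furthest called base. This was the fourth highest density of the 6 chromosomes, which ran up to 42.1 per Mb on chromosome III and down to 18.7 per Mb on X. With the chromosome cut into outer and central parts of 33.3% each, the centre had 26.6 regions per Mb (185 regions). The left arm had 17.8 per Mb (124 regions) and the right arm 18.1 per Mb (126 regions). The centre thus held 42.5% of the regions of the chromosome (95% Wilson interval 38.0 to 47.2%), more than its 33.3% of the length (two-sided exact binomial test, adjusted p = 6.94e-04). Of the 250 regions in the arms, 49.6% lay on the left (43.5 to 55.8%), which did not differ detectably from an even division (exact binomial test, adjusted p = 1).

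The p-values were adjusted by the Benjamini-Hochberg method over 20 tests. An alternative setting was put in place of its own test within these 20, so the adjustment does not cover the number of settings tried. Each region counts as an independent event, which neighbouring regions need not be, so the p-values may be too small. With each cluster of regions counted once, where gaps of at most 5000 bp join regions, the central share was 44.2% (142 of 321; exact binomial test, adjusted p = 5.30e-04). This merging acts only over short distances. Counts also varied over longer stretches, from 8 to 34 per whole Mb, which the test does not allow for. Its p-value may therefore still be too small.

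**Figure D1:**
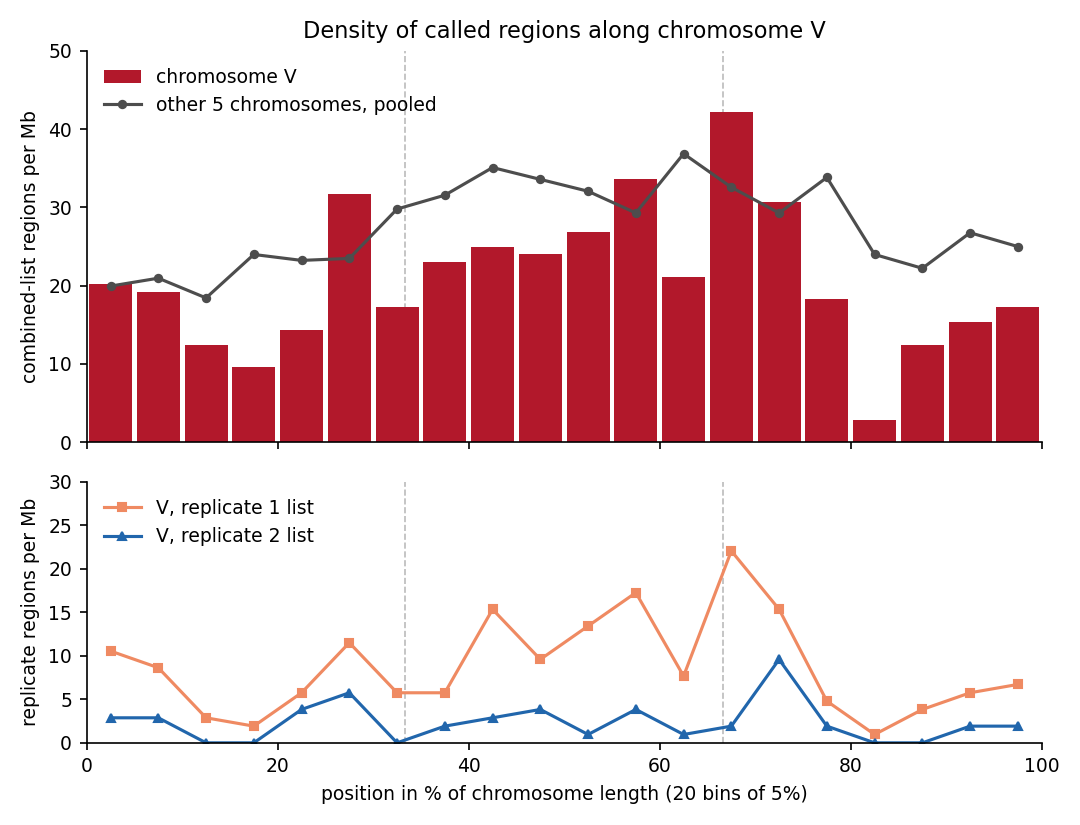
Regions per Mb in 20 bins of 5% of the chromosome's length, for the combined list on chromosome V (bars) and on the other 5 chromosomes pooled (line) above, and for the replicate lists on V below; dashed lines bound the central 33.3%. Chromosome V lies below the others in 15 of the 20 bins, and its lowest bin, at 80 to 85% of the length, has 2.88 regions per Mb.

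Counted per Mb, regions were not sparse throughout the arms. From the left end, the first Mb held 20 combined regions and the next held 19, followed by 14, 11 and 11. The count was 27 between 5 and 6 Mb and stayed between 15 and 34 in every Mb up to 17 Mb. The 2 highest counts were 34, between 13 and 14 Mb, and 33, between 11 and 12 Mb. The lowest was 8, between 17 and 18 Mb, followed by 10, 12 and then 18 in the last, incomplete bin of 0.848 Mb. Over the 20 whole bins the count was 20.9 ± 8.17 (mean ± SD). The poorest stretches therefore lay inside each arm and not at the chromosome ends.

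The replicate lists followed the same outline in part. Replicate 1 had at most 5 regions in each Mb from 2 to 5 Mb, 17 in each of the 2 Mb with the most combined regions, and 1 between 17 and 18 Mb. Replicate 2 had no region in 4 of the 20 whole bins, namely from 2 to 4 Mb, from 13 to 14 Mb and from 17 to 18 Mb. Between 13 and 14 Mb the lists thus stood apart, with 34 combined regions, 17 in replicate 1 and none in replicate 2. Replicate 2 was richest between 14 and 15 Mb, with 7 regions, followed by 6 regions in each of the stretches from 15 to 16 Mb and from 5 to 6 Mb.

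The centre of chromosome V was dense in replicate 1 but not in replicate 2. Replicate 1 placed 86 of 183 regions there, or 47.0% (39.9 to 54.2%; exact binomial test, adjusted p = 0.00151). Replicate 2 placed 15 of 49 there, or 30.6% (19.5 to 44.5%), with 16 in the left arm and 18 in the right arm (exact binomial test, adjusted p = 0.898). The central excess by this division therefore turned direction in the replicate 2 list, whose interval also covers the share of the combined list. Cut to its 49 lowest q-values on V, replicate 1 placed 42.9% in the centre (30.02 to 56.7%; exact binomial test, adjusted p = 0.735), a setting added with the data in view. With the central part widened to 50% of the length, the 3 lists lay close together: it held 66.0% of the combined regions (61.4 to 70.3%), 70.5% in replicate 1 (63.5 to 76.6%) and 67.3% in replicate 2 (53.4 to 78.8%). The combined list overlaps 173 of 183 replicate 1 regions and all 49 of replicate 2 on V, so its closeness is no separate support. The combined and replicate 1 shares passed the test against 50% (exact binomial test, adjusted p = 5.02e-10 and 5.81e-07), and the share of replicate 2 did not (adjusted p = 0.106).

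The next question was whether this spread sets chromosome V apart from the other chromosomes. Chromosome V makes up 20.8% of the summed length of the 6 chromosomes. It held 17.7% of all regions in chromosome centres, 17.0% of those in left arms and 14.9% of those in right arms, which is 0.85, 0.82 and 0.72 times its share of the length. In the right arm the deficit passed the test (126 of 845 regions, exact binomial test, adjusted p = 2.47e-04). In the left arm and in the centre it did not (124 of 729 and 185 of 1047 regions, exact binomial test, adjusted p = 0.0598 for each). Over its whole length V held 16.6% of all regions, also below 20.8%. These ratios set V against a sum that includes the denser chromosomes II, III and IV. In none of the 3 parts was V the sparsest chromosome. Fewer regions per Mb were found in the right arm of I (16.7, against 18.1 on V). The same held for the left arms of II (16.3) and X (15.9), against 17.8 on V, and the centres of I (25.3) and X (18.8), against 26.6 on V. The arms of V itself held nearly equal numbers, 124 and 126. The lower right-arm ratio thus goes with the larger total of all right arms, 845 against 729 in left arms. Among the autosomes alone all 3 ratios passed, at 0.77 for the left arm, 0.78 for the centre and 0.69 for the right arm (exact binomial test, adjusted p = 0.00477, 5.13e-04 and 1.82e-05). The call for the right arm was lost in replicate 1 alone (ratio 0.72, adjusted p = 0.0598) and in replicate 2 alone (ratio 0.82, adjusted p = 0.813, exact binomial tests). For the centre the lists stood further apart, with a ratio of 0.98 in replicate 1 alone (adjusted p = 1) and 0.61 in replicate 2 alone (adjusted p = 0.153, exact binomial tests). For the left arm the ratios were 0.79 in replicate 1 alone and 0.88 in replicate 2 alone, and neither passed (adjusted p = 0.445 and 0.865, exact binomial tests).

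The share of regions in the central 33.3% was 42.5% on V and 39.4% on the other 5 chromosomes together, a difference of 3.10 percentage points (95% Newcombe interval -1.91 to 8.21; Fisher's exact test, adjusted p = 0.795). It was the highest of the 6 chromosomes, with 33.4% on X and 39.6 to 41.3% on the other autosomes. With a central part of 50%, V held 66.0% of its regions there and the others 56.8% (1242 of 2186). This difference of 9.16 points did pass the test (4.14 to 13.9; Fisher's exact test, adjusted p = 0.00288). It was 7.67 points against the other autosomes only (adjusted p = 0.0223, Fisher's exact test). In the replicate lists it was 14.2 points in replicate 1 (adjusted p = 0.00242, Fisher's exact test) and 11.8 points in replicate 2 (-3.37 to 24.7, adjusted p = 0.613). In the plot of density along the chromosome, V stood above the others in 5 bins. They were at 25 to 30% of the length (31.7 regions per Mb, against 23.5 on the others), 55 to 60% (33.6 against 29.3), 65 to 70% (42.2 against 32.6), 70 to 75% (30.7 against 29.3) and, by little, 0 to 5% (20.1 against 19.9). Of these only the bin at 55 to 60% lies wholly within the narrower centre.

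**Figure D2:**
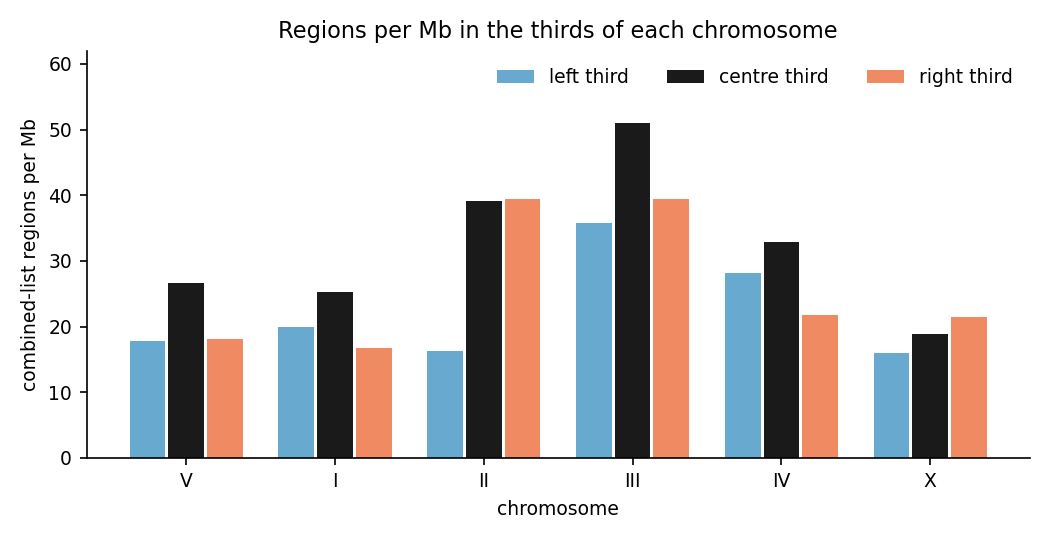
Combined-list regions per Mb in the left, central and right 33.3% of each chromosome. On chromosome V the centre has 26.6 per Mb against 17.8 and 18.1 in the arms; on chromosome II the right arm (39.4) is close to the centre (39.2), and on X the right arm (21.5) exceeds it (18.8).

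The third question concerned the regions with the lowest q-values. A q-value here is the authors' own false discovery estimate for a region in 1 list, given below also as its −log10, which is larger for stronger calls; it depends on read depth and width and is not an enrichment. The median −log10 q on chromosome V was 5.34, near the low end of the 6 chromosomes, whose medians ran up to 5.605. Of the V regions, 101 (23.2%) were in the quartile of the combined list with the lowest q-values, against 555 (25.4%) on the other chromosomes. The difference was -2.17 points, with an interval that included 0 (-6.34 to 2.38; Fisher's exact test, adjusted p = 0.813).

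The strongest call on the chromosome was a broad region in the left arm, V:723959-728265, 4307 bp wide with q = 3.71e-58. It ranked 3 in the whole combined list. Replicate 1 called 2 regions overlapping it, the better one 3216 bp wide with −log10 q of 31.4, and replicate 2 called 1 region of 1243 bp with −log10 q of 7.94. The next was V:14685590-14688792 in the right arm, 3203 bp wide with q = 5.46e-42, overlapping calls with −log10 q of 27.9 (replicate 1) and 7.30 (replicate 2, the better of 2 calls there). Both regions were thus among the first 5 of the whole replicate 1 list but ranked 48 and 58 in replicate 2.

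The third was V:11887768-11889967 in the centre, 2200 bp wide. Its −log10 q was 20.8, beside 14.2 for the replicate 1 call and 6.24 for that of replicate 2. Replicate 2 covered only its right side, from 11888908. The fourth and the ninth lay side by side near the right end, at V:20157820-20158991 and V:20159193-20160313, with −log10 q of 19.1 and 14.4. They were 201 bp apart, the smallest gap on the chromosome, and replicate 2 called only the first of them. The smallest gap on any other chromosome was 202 bp in the combined list. The fifth, V:9342972-9344781 (−log10 q of 15.4), was called in replicate 1 at −log10 q of 14.4 and had no region in replicate 2.

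The other 4 of the 10 strongest V regions were narrow, from 393 to 614 bp, and were called in both replicates. They were V:9546773-9547237, V:15873737-15874129, V:10965421-10965875 and V:9969865-9970478, with −log10 q between 14.3 and 15.4. At V:15873737-15874129 the replicate calls had the same width of 339 bp and were offset by 27 bp. Of these 10 regions 8 were called in both replicates and 2 in replicate 1 only.

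The replicates put different regions first. The 5 lowest q-values of replicate 1 on V belonged to the regions at V:723900-727115, V:14685601-14688821, V:9342936-9344590, V:11887785-11889747 and V:15464882-15465376. The first 4 were 1655 to 3221 bp wide. In replicate 2 the order was led by 2 narrow regions of the centre, V:8500369-8500709 (341 bp, −log10 q of 9.29) and V:8606158-8606790 (633 bp, −log10 q of 8.05). The left-arm region V:724614-725856 came next, and then V:20157823-20158395 and V:18967147-18967916. Only the locus near 724 kb was thus in the first 5 of both replicate lists.

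Broad regions, taken as at least 1000 bp wide, numbered 23 on chromosome V, or 5.29% of its regions, and 98 on the other chromosomes, or 4.48%. The difference of 0.80 points was not detectable (-1.18 to 3.45; Fisher's exact test, adjusted p = 0.813). The median width was 374 bp (quartiles 291 to 513.5 bp) on V and 369.5 bp (283 to 526 bp) on the others. The 23 broad regions covered 35.0 kb, or 17.1% of the 204 kb of called sequence on V. They lay in the left arm (8), the centre (10) and the right arm (5). Their share was 5.41% in the centre and 5.20% in the arms, a difference of 0.21 points (-4.06 to 4.97; Fisher's exact test, adjusted p = 1). The 5 in the right arm lay in 3 places: at V:14456400-14457470 with V:14462645-14463682, at the strong region V:14685590-14688792, and at the adjoining pair near the right end.

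Of the 23 broad regions, 3 were wider than 2000 bp, 1 in each part of the chromosome, and these were the 3 strongest. The others in the 5 widest were V:9342972-9344781 (1810 bp) and V:5842354-5844052 (1699 bp). Replicate 1 had a region in 19 of the 23, and replicate 2 in 7. A call in at least 1 replicate was made for 82.6% of the broad and 39.1% of the narrower V regions, beside 66.3% and 38.8% on the other chromosomes. Broad regions had lower q-values, with a median −log10 q of 10.3 on V against 5.22 for narrower ones. An overlap of 1 bp counts as a call, so a wider region can also meet it more easily. The parts of q and width in this contrast were not tested. The first region of the chromosome, V:8074-9278 (1205 bp), was called by replicate 1 only over its left 309 bp.

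**Figure D3:**
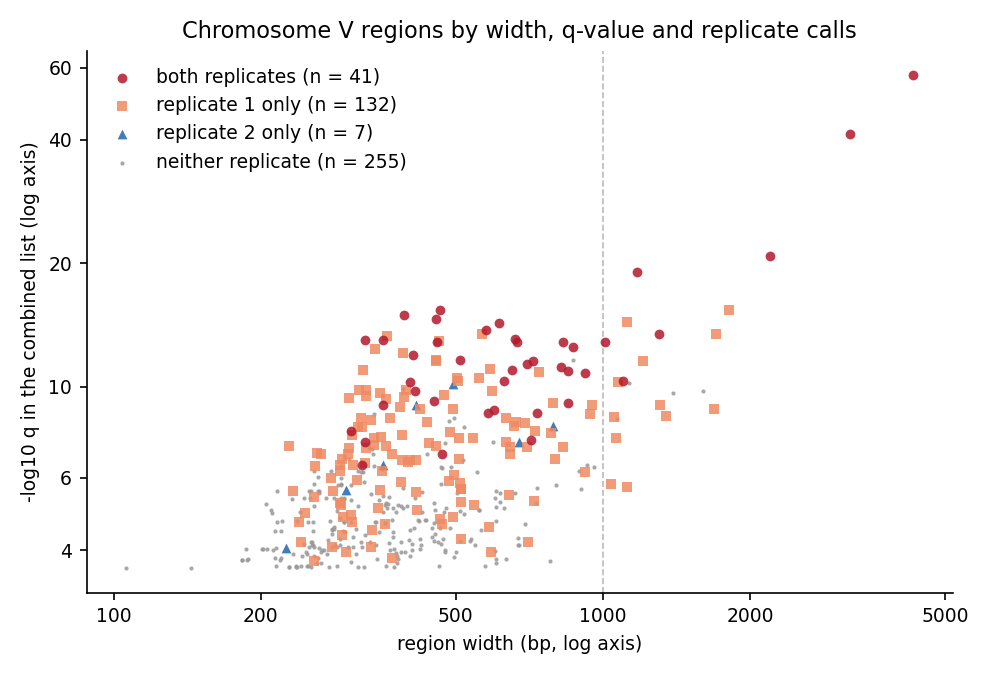
Width (bp, log axis) and −log10 q in the combined list (log axis) of the 435 regions of chromosome V, marked by the replicate lists that called them; the dashed line is at 1000 bp. The 3 widest regions, of 2200 to 4307 bp, have the highest −log10 q and were called in both replicates, and most points below −log10 q of 5 were called in neither.

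The fourth question was how closely the regions lie together. The median gap between neighbouring regions was 24.7 kb on V, with quartiles of 4.14 and 61.7 kb. Its lower quartile was the shortest of the 6 chromosomes (4.404 to 9.63 kb on the others), although 3 of them had more regions per Mb. At the other end, 58 of 434 gaps (13.4%) were over 100 kb, and these long gaps made up 50.9% of the length of the chromosome, beside 14.2% on chromosome III and 49.5% on X. Gaps over 200 kb numbered 15 on V and 1 to 11 on each other chromosome.

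The 3 longest gaps lay in the arms. The longest, from V:16965921-17659232, spanned 693 kb of the right arm, and was also the longest between regions on any chromosome, followed by 682 kb on chromosome II. Replicate 1 called 1 region in it, at V:17648754-17649088 (q = 1.70e-05), which the combined list does not hold, and replicate 2 called none. The next, V:19643353-20157819 (514 kb), ended at the strong pair of broad regions near the right end. The third, V:3759863-4169479 (410 kb), lay in the left arm. Neither replicate called a region in these last 2 gaps.

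A neighbour within 5000 bp was found for 185 of the 435 V regions (42.5%) and for 904 of 2186 on the other chromosomes (41.4%). The difference of 1.17 points did not pass the test (-3.84 to 6.29; Fisher's exact test, adjusted p = 0.838). Within 2000 and 10000 bp it was 3.06 and -0.82 points, and neither passed (Fisher's exact test, adjusted p = 0.613 and 0.884). A fixed distance favours dense chromosomes, so the distance was also set to 10% of each chromosome's own mean spacing. This is 4.79 kb on V and 2.38 to 5.34 kb on the others. The scaled distance is longer on sparse chromosomes, so it can favour those where clusters have a similar size in bp. By that measure 41.8% of the V regions and 33.03% of the others had a close neighbour, and V ranked first of 6. The difference of 8.81 points passed the test (3.85 to 13.9; Fisher's exact test, adjusted p = 0.00331), also against the other autosomes only (9.26 points, adjusted p = 0.00215). In the replicate lists the distance was 10% of each list's own mean spacing, which is longer because they hold fewer regions. So measured, the difference was 4.14 points in replicate 1 (-3.39 to 12.1) and 1.37 points in replicate 2 (-10.8 to 16.1). It passed in neither (adjusted p = 0.756 and 1, Fisher's exact test). Within 5000 bp it was 5.34 points in replicate 1 (-1.71 to 13.0) and 7.76 points in replicate 2 (-2.27 to 21.4). Neither of these passed (Fisher's exact test, adjusted p = 0.587 and 0.613).

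**Figure D4:**
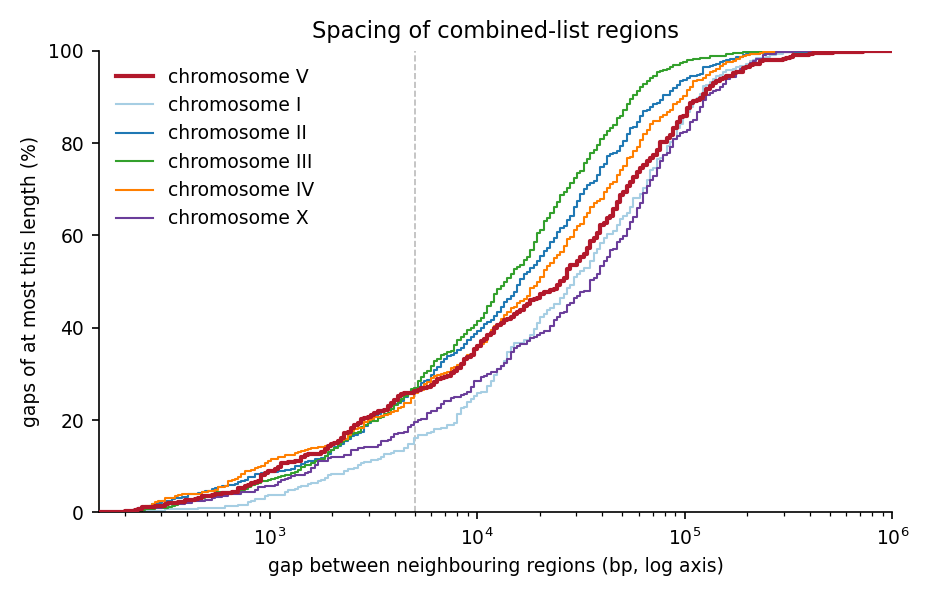
Share of gaps between neighbouring combined-list regions (y axis, %) that are no longer than the length on the x axis (bp, log axis), for chromosome V and each other chromosome; the dashed line is at 5000 bp. The curve of V lies with the dense chromosomes at short gaps (26.3% up to 5000 bp) and nearer to the sparse ones at long gaps (13.4% over 100 kb).

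Runs of regions with gaps of at most 5000 bp were counted as clusters. Chromosome V had 250 single regions, 44 pairs and 27 clusters of 3 or more regions. These 27 held 97 regions, or 22.3%, and on the other chromosomes 350 of 2186 regions (16.01%) were in clusters of this size, with 22.3% on chromosome III as the highest share. This contrast was noticed in the data and was not tested. In the centre of V 74 of 185 regions and in its arms 111 of 250 (44.4%) had a neighbour within 5000 bp (centre minus arms, -4.40 points, -13.6 to 4.99; Fisher's exact test, adjusted p = 0.813). It was -14.4 points among the better-scored 50% (-26.8 to -1.27, adjusted p = 0.160) and 3.01 points with a central part of 50% of the length (Fisher's exact tests).

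The largest cluster, V:13650041-13665342 in the centre, had 7 regions of 236 to 958 bp within 15302 bp. Replicate 1 called 4 of them and replicate 2 none. A cluster of 6 in the left arm, V:1151267-1158828, had q-values from 5.70e-07 to 2.15e-04, and replicate 1 called 1 of its regions. By contrast, the cluster of 5 at V:15184175-15191316 in the right arm reached q = 1.33e-13, with 4 regions in replicate 1 and 2 in replicate 2. Of the 7 clusters of 4, the strongest were V:12301156-12307032 (lowest q = 1.91e-14) and V:5838912-5846153 (lowest q = 3.42e-14). The cluster at V:5838912-5846153 includes the broad region of 1699 bp named above. The cluster members are separate calls of 1 list, and whether each is a separate binding site was not tested.

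The last question was how many V regions the replicate lists also call, counting an overlap of at least 1 bp. Replicate 1 called 173 of the 435 (39.8%), where 38.2% of the combined regions of all chromosomes were called, and replicate 2 called 48 (11.0%), where the figure for all chromosomes was 11.6%. At least 1 replicate called 180 (41.4%; 40.3% over all chromosomes) and both called 41 (9.43%; 9.46% over all chromosomes). These shares lie near those of the whole list. Against the other 5 chromosomes the differences were 1.94 points for replicate 1 (-2.999 to 7.02), -0.68 for replicate 2 (-3.65 to 2.86), 1.31 for at least 1 replicate (-3.68 to 6.41) and -0.04 for both (-2.77 to 3.28). None passed the test (Fisher's exact test, adjusted p from 0.813 to 1).

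The 41 V regions called in both replicates had a median width of 627 bp (quartiles 452 to 847 bp), beside 495 bp (389 to 678 bp) for the 207 such regions elsewhere, a contrast that was not tested. They were spread evenly, with 14 in the left arm, 13 in the centre and 14 in the right arm. Of the 132 regions called only in replicate 1, 67 lay in the centre, 29 in the left arm and 36 in the right arm. As a background, the centre held 42.5% of all combined V regions and 47.0% of all replicate 1 regions on V. The difference from these shares was not tested. Of the centre's regions 7.03% were called in both replicates, and of those in the arms 11.2% (centre minus arms, -4.17 points, -9.52 to 1.53; Fisher's exact test, adjusted p = 0.735). This difference was -12.1 points among the better-scored 50% of the regions (-22.1 to -1.65, adjusted p = 0.0996) and -0.05 points with a central part of 50% of the length (Fisher's exact tests). For at least 1 replicate the shares were 44.3% in the centre and 39.2% in the arms (5.12 points, -4.19 to 14.4; adjusted p = 0.813, Fisher's exact test).

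**Figure D5:**
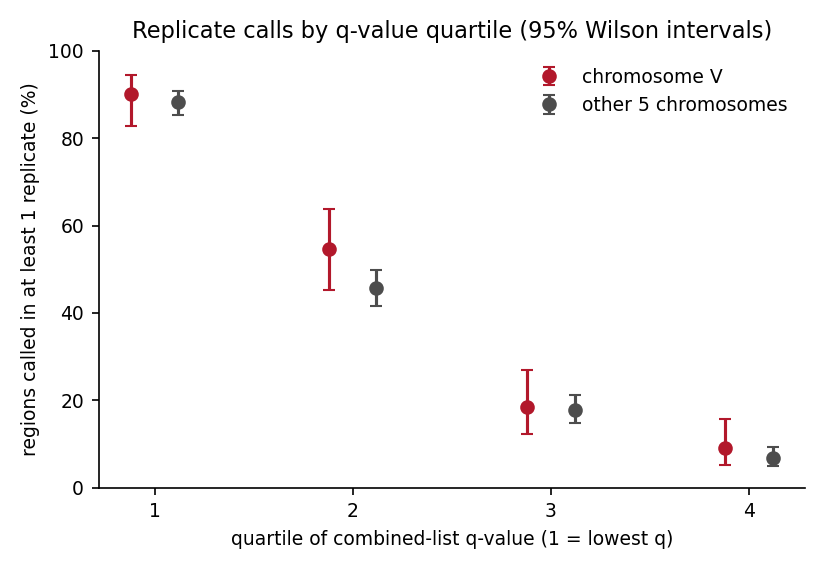
Share of combined-list regions called in at least 1 replicate (y axis, %, with 95% Wilson intervals) by quartile of q-value over the whole list, for chromosome V (101 to 120 regions per quartile) and the other 5 chromosomes. The intervals of V overlap those of the others in every quartile.

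By quartile of q-value, 90.1% of the V regions in the strongest quartile were called in at least 1 replicate, then 54.7%, 18.5% and 9.17%. The same shares were 88.3%, 45.7%, 17.9% and 6.92% on the other chromosomes. A few strong V regions had no replicate call. The 5 with the lowest q-values were V:10031165-10032033 (869 bp, q = 2.51e-12), V:11921226-11922358 (1133 bp, q = 6.12e-11), V:8247752-8248142 (391 bp, q = 1.35e-10), V:10680149-10681752 (1604 bp, q = 1.62e-10) and V:3578859-3580247 (1389 bp, q = 2.25e-10). Of these, 4 lay in the centre and 3 were broad. Of all 255 V regions with no replicate call, 103 lay in the centre and 4 were broad. Since broad regions had lower q-values, a choice by q favours them.

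In the other direction, all 49 V regions of replicate 2 overlapped the combined list, and 173 of 183 (94.5%) of replicate 1 did. The 10 left out were weak, and the 5 strongest of them had q between 1.70e-05 and 5.68e-05. Of the 49 replicate 2 regions on V, 42 (85.7%) overlapped replicate 1, against 210 of 261 (80.5%) elsewhere (5.25 points, -7.87 to 14.1; Fisher's exact test, adjusted p = 0.813). Of the 183 replicate 1 regions, 41 (22.4%) overlapped replicate 2, against 211 of 855 (24.7%) elsewhere (-2.27 points, -8.48 to 4.86; Fisher's exact test, adjusted p = 0.813). Within V this last share was 30.4% in the left arm (14 of 46), 15.1% in the centre (13 of 86) and 27.5% in the right arm (14 of 51), which was not tested.

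Where both replicates called the same place on V, 41 regions could be paired 1 to 1. Replicate 2 had 2 calls at V:14685601-14688821, and the pair there holds the weaker, V:14688167-14688672 (−log10 q of 5.99). Replicate 1 had the lower q-value in 32 of the 41 pairs, and its median −log10 q was 6.69, beside 5.38 for replicate 2. Replicate 2 was wider in 18 pairs, narrower in 22 and of equal width in 1. The midpoints lay a median of 45 bp apart, and 28 of 41 pairs (68.3%) were within 100 bp, beside 38 bp and 163 of 210 (77.6%) on the other chromosomes, without a test. The strongest replicate 1 calls on V that overlapped nothing in replicate 2 were V:9342936-9344590, V:6227171-6228846 (q = 8.61e-11) and V:16592084-16592949 (q = 2.19e-10). In replicate 2 the strongest without a replicate 1 overlap were V:20474217-20474843 (q = 5.82e-07), V:14612198-14612494 (q = 6.46e-06) and V:5274920-5275239 (q = 9.65e-06). Both sets were chosen after their values were seen.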

How the data were processed

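Worms were grown at 20 °C, fixed in 2% formaldehyde and sonicated, and 10% of each lysate was kept as input, per the labels' protocols. The authors called regions with PeakSeq on WormBase WS180, per the file contents and headers, and deposited 1 q-value per region. PeakSeq's version and q limit, the input set against each list and the origin of the combined list: not given in the sources used here. Depth is unknown, and no input data were analysed here. PeakSeq compares ChIP reads with scaled input reads, so both the number of regions and their q-values move with depth.

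Positions and q-values were read from the 3 lists and the samples grouped by title. Regions were placed by midpoint. Shares were tested by two-sided exact binomial or Fisher's exact tests (scipy 1.17.1) with Benjamini-Hochberg adjustment over 20 tests and a threshold of 0.05. Intervals are 95% Wilson and Newcombe intervals, for counting error only. The tests were tried on simulated lists whose regions were placed independently of each other. Such lists cannot show how far clustering of regions makes the p-values too small. Regions were named by rule: the 10 lowest q-values, the 5 lowest in each replicate, the 5 widest, the 5 largest clusters, the 3 longest gaps, and the 5 lowest q-values with no replicate call or, in a replicate, outside the combined list. The first region, the right-arm broad regions and the 3 strongest calls of each replicate without the other were named after their values were seen. The members, division and named regions were chosen with earlier results of these data known. The gene list used was F23B12.7 and unc-119, by RefSeq name (WBcel235). No sequence is shown, since no WS180 genome was used here.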

Additional observations from a re-analysis of the deposited data

How the results depend on the processing

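Of 96 alternatives to the 20 tests, 74 were planned and 22 were added after the data were seen, and 65 kept direction and call. Directions turned in 17, none of them past the threshold (adjusted p from 0.758 to 1). The cause was not tested in any of these. Calls were gained for V's share of left-arm regions with a central part of 50% (ratio 0.757), with autosomes only (0.772) and without chromosome I (0.804), and for its share of central regions with autosomes only (0.781) and without chromosome I (0.820). The right-arm ratio ran from 0.722 to 0.823 over the single replicate lists and lost its call. Over settings without 1 replicate, the central share of V ran from 30.6% to 47.0% with a central part of 33.3% and from 67.3% to 70.5% with one of 50%, and was 42.9% with replicate 1 cut to the length of replicate 2. The difference in central share from the others ran from -8.85 to 7.81 points over settings without 1 replicate with a central part of 33.3% and from 11.8 to 14.2 points with one of 50%. In the combined list it was 9.16 points with a central part of 50%, and 7.67 points with that part against autosomes only. The neighbour share differed by 8.81 points at 10% of the mean spacing, by 9.26 points so against autosomes only, by -0.82 points within 10000 bp and by -0.88 points without chromosome I. The left share of arm regions was 50.3% with clusters counted once, 53.4% in the outer 25% and 51.8% in the better-scored 50%. With midpoints within 100 bp, support differed by -0.16 points for replicate 1 and by -0.56 for at least 1 replicate, and replicate 2 regions in replicate 1 by -5.31. Without chromosome I, support by at least 1 replicate differed by -0.22 points. Support by both differed by 0.0017 points with an overlap of at least 50%, and in the better-scored 50% by 1.24, where replicate 2 support differed by 0.88. Between centre and arms, the better-scored 50% were ranked on V alone, and in the other settings over the whole list. Between centre and arms they gave -0.067 points for at least 1 replicate and -1.79 for broad regions, and a central part of 50% gave 3.01 for neighbours. No paired analysis was possible because each replicate is 1 list of calls and no input data were analysed here. Without read counts, the part of the replicate difference due to depth cannot be measured.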
